A study of Oryza sativa with 12 samples.

Results

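The short arms of rice chromosomes 4 and 10 are described here by the sites at which IDD7 bound purified genomic DNA. Members were the called summits on chromosome 4 below 8.7 Mb and on chromosome 10 below 7.2 Mb, borders set to lie 1 Mb before each centromere. They numbered 1199 of 27495 summits in a first deposited list (list A) and 1041 of 24744 in a second (list B). The long arms, on chromosome 4 above 10.7 Mb and on chromosome 10 above 9.2 Mb, held 2856 summits of list A and 2577 of list B and were the comparison.

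DNA affinity purification sequencing (DAP-seq) exposes sheared genomic DNA to a tagged protein in a tube and sequences the fragments that stay bound. Per the labels, 6 libraries used HaloTag-IDD7 and 6 used HaloTag-GFP, a green fluorescent protein control, both made in wheat germ extract. All 12 shared 1 kind of DNA, from roots of Oryza sativa ssp. japonica cultivar Nipponbare, colonized above 90% by the fungus Rhizophagus irregularis and harvested at 7 weeks after inoculation under 25 uM phosphate. Each list pools 3 biological replicates of 1 technical replicate and was called relative to GFP, so list A against list B measures repeatability between technical pools and not between plants. The GFP libraries entered only through that calling.

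Indeterminate domain (IDD) proteins are plant transcription factors that bind DNA through zinc fingers, and OsIDD7 was studied for its part in arbuscular mycorrhizal symbiosis. In cytological maps of rice the short arms of chromosomes 4 and 10 stain as heterochromatin, the compact and repeat-rich form of chromatin, while their long arms are mostly euchromatin. DAP-seq uses DNA stripped of nucleosomes, so the compaction of a living nucleus is absent from the assay, whereas chemical marks on the bases can remain. The lists hold positions and neither sequence nor chromatin state, so the heterochromatic label could not be checked against them. Gaps in the assembly, repeats and mappability along the arms were not analysed here.

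Each list gives 500 bp intervals, whose midpoint was taken as the summit. A summit was called shared when the other list had one within 250 bp, as 56.8% of list A and 63.1% of list B were over the whole series. The lists carry no peak height or read count, so the depth behind a site is unknown. Intervals on densities and shares below cover counting error only. No source used here names the genome build of the lists, so positions are in the build of the lists, 1-based, and the borders of the arms rest on it as well.

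Whether the short arms carried fewer IDD7 sites than the long arms was asked first. No depletion was seen: sites called in both lists were slightly denser on both short arms, and the interval of each ratio, given below, included 1. The short arm of chromosome 4 held 401 shared summits in 8.7 Mb, or 46.1 per Mb (95% exact Poisson interval 41.7 to 50.8), against 1084 in 24.8 Mb of its long arm, or 43.7 per Mb (41.1 to 46.4). The short arm of chromosome 10 held 294 shared summits in 7.2 Mb, or 40.8 per Mb (36.3 to 45.8), against 547 in 14.0 Mb of its long arm, or 39.1 per Mb (35.9 to 42.5). The interval of each short arm overlapped that of its long arm.

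The single lists differed as little between the arms, with list B on chromosome 4 the 1 case in which the short arm was the sparser. List A had 684 summits on the chromosome 4 short arm, 78.6 per Mb, against 1870 on the long arm, 75.4 per Mb. List B had 573 summits there, 65.9 per Mb, against 1690 on the long arm, 68.1 per Mb. For chromosome 10, list A had 515 summits on the short arm, 71.5 per Mb, against 986 on the long arm, 70.5 per Mb. List B had 468 and 65.0 per Mb on that short arm, against 887 and 63.4 per Mb on its long arm. The 500 bp intervals covered 3.92% of the chromosome 4 short arm in list A and 3.29% in list B, against 3.76% and 3.40% of its long arm. On chromosome 10 they covered 3.57% and 3.25% of the short arm, against 3.52% and 3.17% of the long arm.

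Windows of up to 500 kb show how much the density varied inside each arm. On the chromosome 4 short arm shared density ranged from 22 to 66 per Mb with a median of 45 (mean 46.7, SD 13.4, n = 18 windows), against 22 to 70 with a median of 42 on the long arm (mean 43.7, SD 12.2, n = 50). On the chromosome 10 short arm it ranged from 18 to 64 per Mb with a median of 42 (mean 40.2, SD 12.2, n = 15), against 14 to 66.7 with a median of 40 on the long arm (mean 39.6, SD 13.04, n = 28). The windows of short and long arms overlapped over nearly their whole range on both chromosomes.

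**Figure D1:**
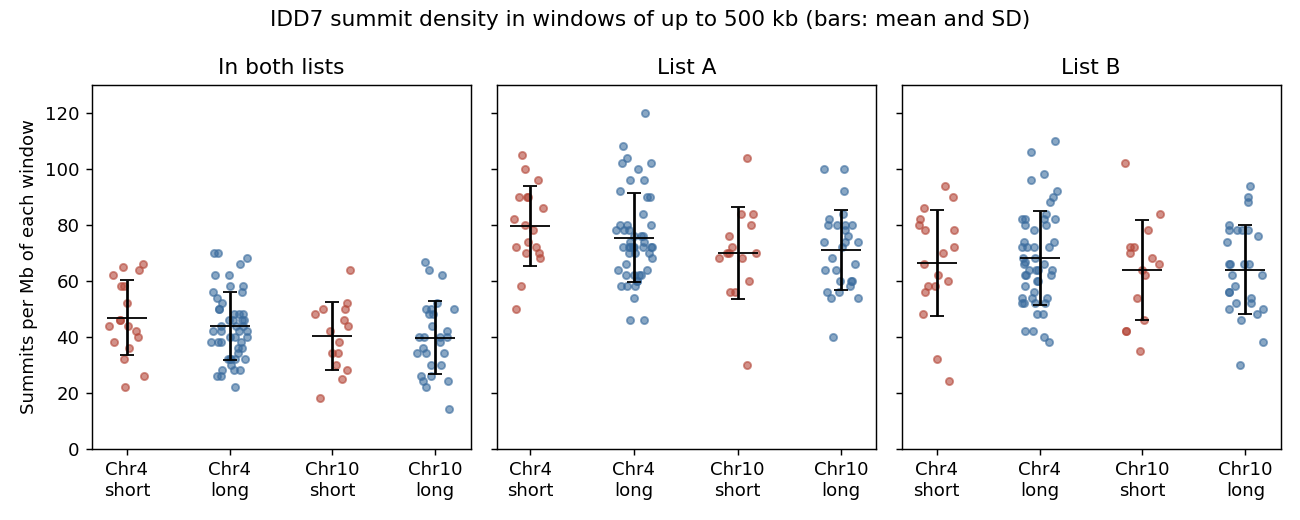
Summits per Mb in windows of up to 500 kb (points) on the short arms (red) and long arms (blue) of chromosomes 4 and 10, for shared, list A and list B summits, with mean and SD over windows in black. Shared densities ran from 22 to 66 per Mb on the chromosome 4 short arm and from 22 to 70 on its long arm.

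The difference was tested by quasi-Poisson regression on the windows of all 12 numbered chromosomes, with Benjamini-Hochberg adjustment over 41 contrasts. The shared density of the short arm was 1.06 times that of the long arm on chromosome 4 (95% interval 0.907 to 1.23, adjusted p = 0.943, n = 18 and 50 windows) and 1.04 times on chromosome 10 (0.864 to 1.26, adjusted p = 0.943, n = 15 and 28). In list A the ratios were 1.04 on chromosome 4 (0.922 to 1.18) and 1.01 on chromosome 10 (0.873 to 1.18). In list B they were 0.967 (0.845 to 1.11) and 1.02 (0.871 to 1.20). None of the 10 density contrasts between short and long arms passed an adjusted p of 0.05, and the lowest adjusted p among them was 0.530. A p that misses the threshold does not show equal densities, and the intervals give the range of ratios these windows allow. Windows next to each other are not independent, so the intervals may be too narrow.

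Shared sites of the chromosome 4 short arm numbered 1.11 times those per Mb of the other 10 chromosomes taken whole, which had 41.5 per Mb (95% interval of the ratio 0.975 to 1.27, adjusted p = 0.928, n = 18 and 630 windows). For the chromosome 10 short arm the ratio was 0.985 (0.846 to 1.15, adjusted p = 0.943, n = 15 and 630). Neither test passed the threshold. No centromere borders were used for the other chromosomes, so their first 8.7 Mb or 7.2 Mb are only a rough reference. Such a stretch can include a centromere, as the first 8.7 Mb of chromosome 10 does by the borders used here. The set for each short arm also includes the other of chromosomes 4 and 10. Over 11 other chromosomes the first 8.7 Mb held a median of 38.9 shared summits per Mb, from 32.2 on chromosome 8 to 52.1 on chromosome 3. The 46.1 per Mb of the chromosome 4 short arm ranked 2 among all 12. In a comparison added after seeing the data, its log2 ratio to the first 8.5 Mb of the other 10 chromosomes was 0.25 (unadjusted p = 0.0141, adjusted p = 0.219, n = 18 and 170 windows), which did not pass. The first 7.2 Mb of the 11 others held a median of 37.8 per Mb, from 31.1 on chromosome 2 to 52.8 on chromosome 3, and the 40.8 per Mb of the chromosome 10 short arm ranked 5.

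Along the short arm of chromosome 4 the counts of both lists were lowest near the chromosome end, and shared density was highest in the middle. The 2.9 Mb nearest the chromosome end held 42.4 shared summits per Mb, the middle 2.9 Mb held 49.0 and the 2.9 Mb nearest the centromere held 46.9. List A counts in these stretches were 211, 231 and 242, and list B counts were 183, 194 and 196. The arm's fullest 500 kb window, from 1500001 to 2000000, had 48 list A summits and 47 list B summits, with 33 shared. Its emptiest, from 7500001 to 8000000, had 25 and 12, with 11 shared. The next emptiest, from 500001 to 1000000, had 29 and 16, with 13 shared. In both sparse windows list B had the fewer summits, whereas list A and list B were nearly equal in the fullest window.

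Along the short arm of chromosome 10 the densest part was near the chromosome end. The 2.4 Mb nearest that end held 42.9 shared summits per Mb, the middle 2.4 Mb held 40.4 and the 2.4 Mb nearest the centromere held 39.2. List A counts were 187, 169 and 159, and list B counts were 179, 150 and 139. The window from 500001 to 1000000 had 52 list A summits and 51 list B summits, with 32 shared. The window that follows, from 1000001 to 1500000, had the fewest shared summits, 9, with 28 in list A and 21 in list B. From 1500001 to 2000000 list A had 35 summits and list B 42, of which 17 were shared and 25 were in list B only. It was the 1 complete window of 14 on this arm with more summits in list B than in list A. These windows were picked as extremes, so their differences carry no test.

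**Figure D2:**
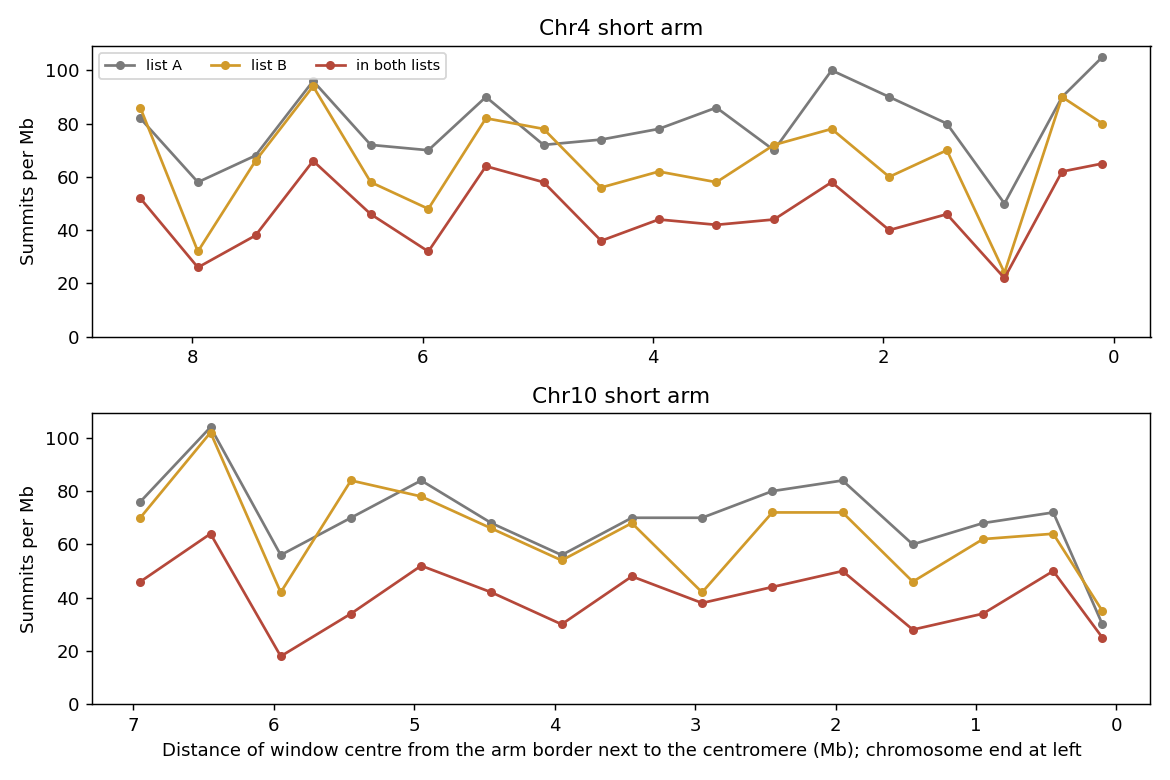
Summits per Mb in successive windows along the short arms of chromosome 4 (top) and chromosome 10 (bottom), plotted by distance from the arm border next to the centromere in Mb. Grey is list A, ochre is list B and red is summits in both lists; the rightmost point of each panel is a 200 kb window, and the dip near 1 Mb on chromosome 4 is the window with 25 list A and 12 list B summits.

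The next comparison asked how often a site of 1 technical pool recurred in the other. Sites of list B on the chromosome 4 short arm recurred more often than those of the other 10 chromosomes. Of 573 list B summits on that arm 401 had a list A partner, or 70.0% (95% Wilson interval 66.1 to 73.6%), against 63.1% of list B as a whole. Its long arm had 64.1% (61.8 to 66.4%) and the other 10 chromosomes had 62.7%. On the chromosome 10 short arm 294 of 468 list B summits recurred, or 62.8% (58.4 to 67.1%), against 61.7% (58.4 to 64.8%) on its long arm. The chromosome 10 short arm as a whole lay near the share of the whole list, but its share was 57.5% in the 2.4 Mb nearest the chromosome end, 64.7% in the middle 2.4 Mb and 67.6% in the 2.4 Mb nearest the centromere. Successive 2.9 Mb stretches of the chromosome 4 short arm, in the same direction, had shares of 67.2, 73.2 and 69.4%.

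The odds of recurrence in list B on the chromosome 4 short arm were 1.39 times those on the other 10 chromosomes (95% interval 1.15 to 1.68, quasi-binomial regression, adjusted p = 0.0343). This was the 1 contrast of 41 that passed the threshold, and 3 had an unadjusted p under 0.05. The p of this contrast takes 500 kb windows as its units, so spread between whole chromosomes is left out of it. Against the chromosome 4 long arm the odds ratio was 1.30 (1.05 to 1.62, unadjusted p = 0.0160, adjusted p = 0.327, n = 18 and 50 windows), which did not pass. On chromosome 10 the odds ratio between short and long arm was 1.05 (0.824 to 1.34). The difference between the chromosomes in this arm effect did not pass either (ratio of odds ratios 1.24, 0.894 to 1.72, adjusted p = 0.943, from a fit of n = 751 windows). Without the outer 2 Mb of chromosomes 4 and 10 its log2 value was 0.16 in place of 0.31. The log2 odds ratio between the arms of chromosome 10 was then 0.33 in place of 0.07, and neither passed the threshold. The call against the other chromosomes passed in 6 of 11 alternatives that used windows, with adjusted p from 0.0205 to 0.0910 over those 11. The lowest came without the outer 2 Mb of chromosomes 4 and 10, with the other chromosomes kept whole. Fisher's exact test, which takes neighbouring summits as independent and so may give too small a p, had an adjusted p of 0.0154. It was lost without the emptiest window of the arm, from 7500001 to 8000000 (adjusted p = 0.0777, n = 17 windows left), and without the fullest (adjusted p = 0.0580, n = 17).

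Window by window, the list B share on the chromosome 4 short arm ran from 57.6 to 91.7% with a median of 70.2%, and 14 of 17 complete 500 kb windows lay above the share of the whole list. On its long arm it ran from 50 to 87.1% with a median of 63.4%, and 26 of 49 lay above. The chromosome 10 short arm had 7 of 14 windows above, from 40.5 to 90.5%, and its long arm had 13 of 27. The highest value on the chromosome 4 short arm came from the window with 12 list B summits, of which 11 were shared. Among the first 8.7 Mb of all chromosomes, 70.0% was the highest list B share, and the 11 others ran from 57.3% on chromosome 11 to 66.3% on chromosome 6.

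In list A no test of recurrence passed. On the chromosome 4 short arm 58.6% of 684 list A summits recurred (95% Wilson interval 54.9 to 62.3%), against 56.8% of list A as a whole and 58.0% (55.7 to 60.2%) on the long arm. The odds ratio between the arms was 1.03 (0.854 to 1.24, adjusted p = 0.943, n = 18 and 50 windows), and against the other 10 chromosomes it was 1.09 (0.925 to 1.28, adjusted p = 0.943). On the chromosome 10 short arm 57.1% of 515 recurred (52.8 to 61.3%), against 55.5% (52.4 to 58.6%) on the long arm, with an odds ratio of 1.06 (0.848 to 1.33). On each arm the count of shared summits was the same in both lists, 401 on the chromosome 4 short arm. The shares of lists A and B there differ only through the list sizes, 684 summits in list A and 573 in list B. Whether the odds ratios of the lists differ was not tested.

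**Figure D3:**
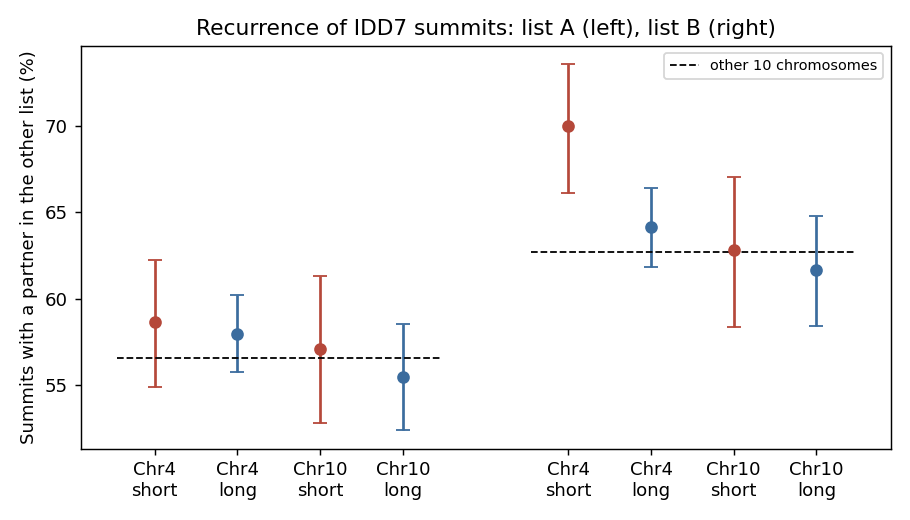
Percent of summits with a partner in the other list within 250 bp, for list A (left) and list B (right), on short arms (red) and long arms (blue), with 95% Wilson intervals; the dashed lines are the other 10 chromosomes. The chromosome 4 short arm stands at 70.0% in list B against 62.7% on the other chromosomes, and at 58.6% in list A.

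A high list B share means, by construction, few sites in list B only relative to the shared sites. On the chromosome 4 short arm there were 172 such sites, 19.8 per Mb, against 606 on the long arm, 24.4 per Mb. The density ratio was 0.809 (95% interval 0.662 to 0.989, unadjusted p = 0.0387, adjusted p = 0.530, n = 18 and 50 windows), which did not pass. The chromosome 10 short arm had 174, 24.2 per Mb, against 340 on the long arm, 24.3 per Mb. Sites in list A only numbered 283 on the chromosome 4 short arm, 32.5 per Mb, against 786 on the long arm, 31.7 per Mb. They numbered 221 on the chromosome 10 short arm, 30.7 per Mb, against 439 on the long arm, 31.4 per Mb. List A had 1.19 times as many summits as list B on the chromosome 4 short arm, 1.11 times on its long arm, 1.10 times on the chromosome 10 short arm and 1.11 times on the chromosome 10 long arm. A ratio near 1.19 was not particular to this arm. Over the first 8.7 Mb of the 11 other chromosomes the median was 1.12, from 1.05 on chromosome 3 to 1.19 on chromosome 5. Chromosomes 6 and 9 had 1.19 and 1.18 there. Over the first 7.2 Mb chromosome 12 had 1.203, above chromosome 4 at 1.191. These ratios were not tested. Within the chromosome 4 short arm list A exceeded list B in 13 of 17 complete windows and fell below it in 3.

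Where a site recurred, the summits of both pools lay close together on either arm. Partner summits were a median of 14 bp apart on the chromosome 4 short arm (middle quartiles 6 to 31 bp), against 15 bp on the long arm (6 to 36 bp). On chromosome 10 it was 15 bp on the short arm (6 to 34 bp), against 18 bp on the long arm (7 to 34.5 bp). Of the 401 shared summits of the chromosome 4 short arm 344 lay within 50 bp of their partner and 8 at the identical position. Of the 294 on the chromosome 10 short arm 245 lay within 50 bp and 4 at the identical position. A partner lies within 250 bp by definition, so these distances could not exceed that. They were not tested.

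Spacing along the arms was compared next. Neighbouring sites lay somewhat nearer to each other on the short arms by their medians, and no test of the distances passed. Shared summits were a median of 11859 bp apart on the chromosome 4 short arm (middle quartiles 3978 to 30277 bp), against 14229 bp on the long arm (5376 to 31217 bp). On chromosome 10 the medians were 15792 bp on the short arm (4806 to 33528 bp) and 17069 bp on the long arm (6427 to 34655 bp). List A had medians of 7040 bp on the chromosome 4 short arm against 8067 bp on the long arm, and 8702 bp on the chromosome 10 short arm against 9443 bp on the long arm. List B had 8042.5 bp on the chromosome 4 short arm against 8742 bp on the long arm, and 9158 bp on the chromosome 10 short arm against 10383.5 bp on the long arm.

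The tests used the window means of log2 distance. On that scale the shared distances of the short arm were 0.881 times those of the long arm on chromosome 4 (95% interval 0.745 to 1.04, adjusted p = 0.942, n = 18 and 50 windows) and 0.914 times on chromosome 10 (0.742 to 1.12, adjusted p = 0.943). For list A the ratios were 0.898 (0.792 to 1.02, adjusted p = 0.928, n = 18 and 50 windows) and 0.937 (0.803 to 1.09), and for list B 0.960 (0.834 to 1.10) and 0.938 (0.795 to 1.11). All 6 ratios were below 1 and all 6 intervals included 1.

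Close neighbours were counted as a description. On the chromosome 4 short arm 132 of 683 list A distances were under 2000 bp, or 19.3%, against 15.7% on the long arm and 16.4% over all numbered chromosomes. In list B the share was 16.1% against 14.7% on the long arm, with 14.7% over all numbered chromosomes. Of shared summits 48 of 400 distances, or 12.0%, were under 2000 bp, against 9.79% on the long arm and 9.80% over all numbered chromosomes. On the chromosome 10 short arm these shares were 16.7% in list A, 13.7% in list B and 9.56% for shared summits, against 14.3%, 12.98% and 8.61% on the long arm. Distances under 500 bp were few in number, and their share was higher on the short arms. Their share over all numbered chromosomes was not computed, and the difference was not tested. On the chromosome 4 short arm there were 10 in list A (1.46%) and 10 in list B (1.75%). Its long arm had 17 (0.910%) and 17 (1.01%). On the chromosome 10 short arm there were 6 (1.17%) and 4 (0.857%), against 4 (0.406%) and 3 (0.339%) on the long arm.

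**Figure D4:**
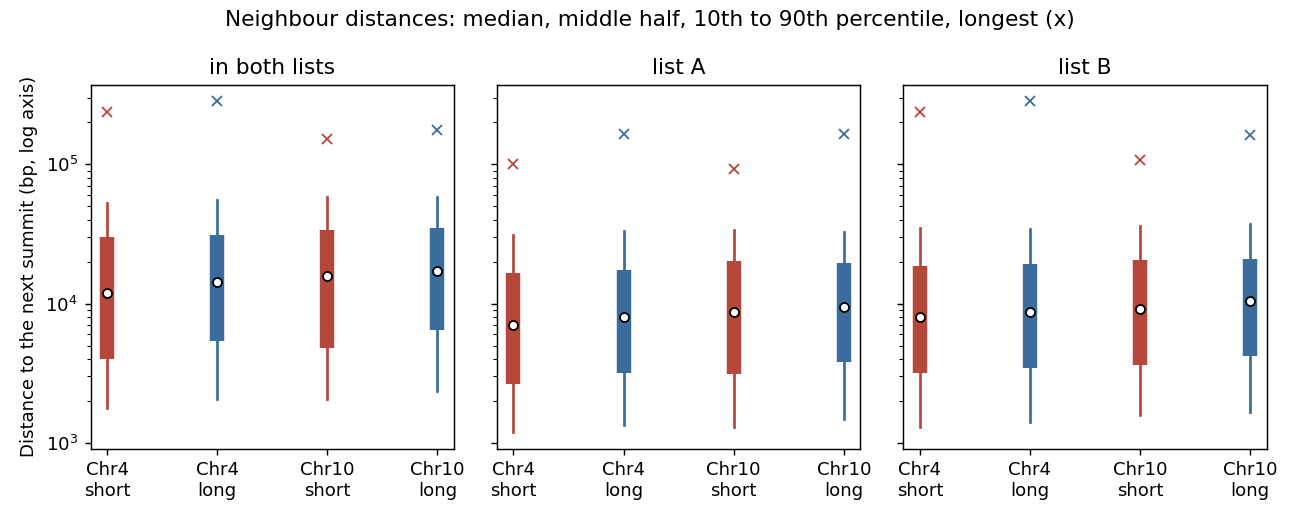
Distance to the next summit in bp on a log axis, for shared, list A and list B summits, on short arms (red) and long arms (blue): white points are medians, thick bars the middle quartiles, thin bars the 10th to 90th percentile and crosses the longest distance. Medians of the short arms lie below those of the long arms, and the longest distances lie on the long arms.

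The tightest run of 3 shared sites on the chromosome 4 short arm spanned 1146 bp. List A placed its summits at 3621811, 3622386 and 3622957, and list B placed its own at 3621802, 3622451 and 3623018. On the chromosome 10 short arm the tightest run spanned 3019 bp, at 1972429, 1974473 and 1975448 in list A and 1972532, 1974472 and 1975453 in list B. The tightest runs of the long arms spanned 1605 bp on chromosome 4, from 22264034 to 22265639, and 1415 bp on chromosome 10, from 18187511 to 18188926. These were picked for their short span and carry no test.

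The richest 100 kb window of the chromosome 4 short arm, from 8100001 to 8200000, held 19 list A summits and 15 list B summits, with 13 shared. A first group in it lay between 8106424 and 8117973, a second between 8148765 and 8159598, and a last between 8177032 and 8191051, by list A position. The next richest, from 6200001 to 6300000, held 18 and 13, with 10 shared. On its long arm the window from 17400001 to 17500000 also held 13. The richest windows of the chromosome 10 short arm held 10 each, from 600001 to 700000 and from 2300001 to 2400000, against 11 from 21800001 to 21900000 on its long arm.

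Just inside the border of the chromosome 4 short arm the last 100 kb held 7 shared summits, and the 100 kb just outside held 6. On chromosome 10 the last 100 kb of the short arm held 1 and the 100 kb outside held 6. The first 100 kb of the chromosome 4 long arm held 2, whereas the 100 kb just outside that border, toward the centromere, held 18. For the chromosome 10 long arm the counts were 6 inside and 5 outside.

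The last comparison concerned stretches without sites. The share of empty sequence was slightly higher on the short arms by less than the tests could separate. On each chromosome the longest empty stretch of the long arm exceeded that of the short arm. Sequence between the arm borders and beyond the outermost summits was not searched. Of 870 bins of 10 kb on the chromosome 4 short arm 360 held no summit of either list, or 41.4%, against 40.4% of the long arm and 41.1% over all numbered chromosomes. On chromosome 10, 304 of 720 bins were empty on the short arm, or 42.2%, against 39.6% of the long arm. The odds ratios by quasi-binomial regression were 1.04 on chromosome 4 (95% interval 0.837 to 1.29, adjusted p = 0.943) and 1.11 on chromosome 10 (0.864 to 1.43, adjusted p = 0.943). Neither short arm passed the test against the other 10 chromosomes, with odds ratios of 1.01 and 1.05.

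On the chromosome 4 short arm the longest stretch without a summit of either list ran 96.3 kb, between summits at 7755632 and 7851944. The next ran 93.9 kb, between 3325297 and 3419213, and the next 93.3 kb, between 7576332 and 7669649. The first and last of these fall in the arm's emptiest 500 kb window. On the long arm the longest ran 155.4 kb, between 15621314 and 15776733, then 154.7 kb from 11878504 to 12033169 and 112.1 kb from 14364909 to 14477043. All 3 long-arm stretches exceeded the longest of the short arm, and the long arm also offers more sequence in which a long stretch can occur.

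The chromosome 10 short arm had 83.0 kb between 7025603 and 7108632, 79.1 kb between 6655054 and 6734160, and 74.0 kb between 423749 and 497710. Its long arm had 161.2 kb between 10780877 and 10942116, 111.7 kb between 9975979 and 10087721, and 81.2 kb between 16254739 and 16335890. Stretches of at least 50 kb made up 14.1% of the chromosome 4 short arm (18 stretches), against 10.4% of its long arm (39 stretches). On chromosome 10 they made up 10.6% of the short arm (12 stretches), against 8.54% of the long arm (17 stretches). By these shares stretches of at least 50 kb took somewhat more of the short arms. Stretches of at least 80 kb made up 4.25% of the chromosome 4 short arm (4 stretches), against 2.42% of its long arm (5 stretches). On chromosome 10 the direction was opposite, with 1.15% of the short arm (1 stretch) against 2.53% of the long arm (3 stretches). The longest stretch on each long arm exceeded the longest on the short arm of the same chromosome, and none of these differences was tested.

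On the chromosome 4 short arm 1 long stretch was empty in list B but not in list A. Between list B summits at 7696444 and 7935025, which is 238.6 kb, list B had no summit while list A had 11, at 7696454 and then from 7730686 to 7930494. The first of these 11 is the partner of the list B summit at the left edge, so 10 were in list A only. The longest stretch of the arm without a list A summit was 100042 bp, between 3325235 and 3425277, and held 3 list B summits. The list B summit at 3325297 is the partner of the list A summit at the left edge, so not all 3 were in list B only. On the chromosome 10 short arm the longest stretch without list B was 106.7 kb, between 3380392 and 3487071, with 3 list A summits in it, and the longest without list A was 92.6 kb, between 1083253 and 1175806, with 3 list B summits. A long stretch empty in list B was also found on the chromosome 4 long arm, 282.4 kb from 15545397 to 15827806, with 6 list A summits inside. Without peak heights, a site missing from 1 list cannot be told apart from one just under the calling threshold.

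**Figure D5:**
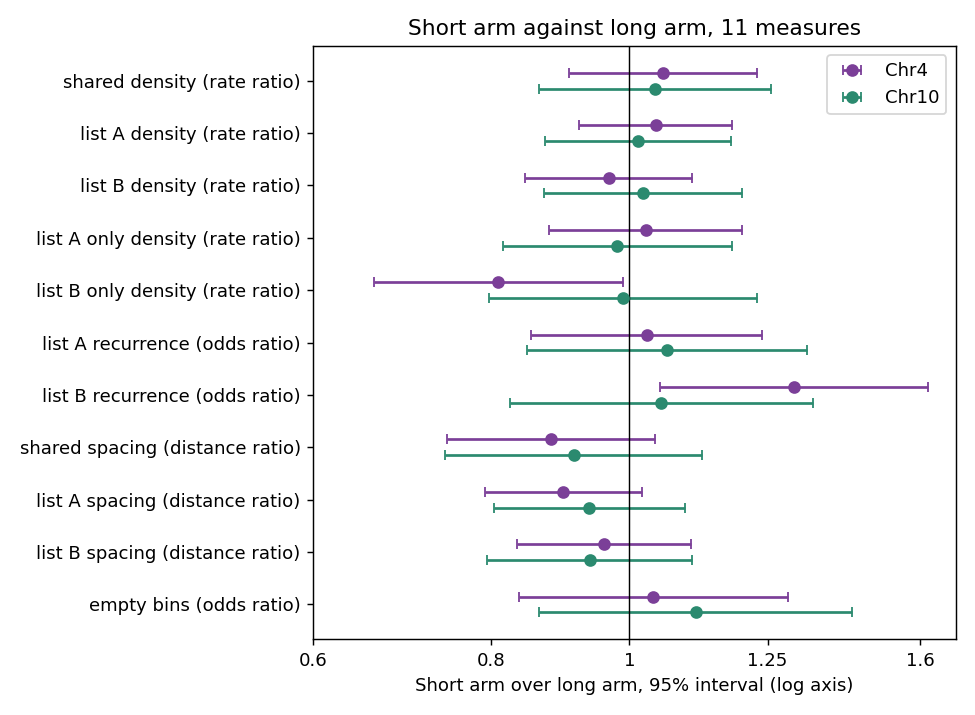
Short arm over long arm for 11 measures on chromosome 4 (purple) and chromosome 10 (green), with 95% intervals on a log axis: rate ratios for densities, odds ratios for recurrence and empty 10 kb bins, and distance ratios for spacing. The 2 intervals that leave out 1 are those of list B only density (0.662 to 0.989) and list B recurrence (1.05 to 1.62) on chromosome 4, and neither contrast passed after adjustment.

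Of 22 contrasts between short and long arms 0 passed an adjusted p of 0.05 by these regressions, and 2 had an unadjusted p under 0.05, both on chromosome 4 and both concerning list B. Of 11 contrasts that set the arm effect of chromosome 4 against that of chromosome 10, 0 passed and 0 had an unadjusted p under 0.05, the lowest being 0.182.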

How the data were processed

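Per the labels, DAP-seq was run on 12 libraries, and the authors deposited 2 summit lists, each pooling 3 IDD7 biological replicates and called relative to GFP. Groups came from the sample titles. The submitters' processing notes name MACS2, Bowtie2, bedtools, deepTools, FastQC and fastp 0.23.2, with no settings, peak threshold or genome build. The lists hold a sequence name, start and end with no header, and no score or count.

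The end of a chromosome was taken as the last interval end in either list. Chromosomes were cut into 500 kb windows at the arm borders, and pieces under 200 kb were left out of the fits. Counts were fitted by quasi-Poisson regression with window length as offset, shares and empty 10 kb bins by quasi-binomial regression, and window means of log2 neighbour distance by weighted least squares (statsmodels 0.14.6, scipy 1.17.1, Python 3.11.15). Each fit had 1 spread over all its windows, 751 for counts, shares and bins. The distance fits left out the windows between the arms of chromosomes 4 and 10. Tests were two-sided, and p-values were Benjamini-Hochberg adjusted over all 41 contrasts. The quasi-Poisson and quasi-binomial fits were tested on simulated data with known ratios, drawn independently for each window. The distance fits were not tested in this way. Stretches and windows named are the extremes of each arm and those at its borders; no gene is named, because the lists pair no position with a gene, and coordinates of the gene table supplied (assembly ASM3414082v1) were not used, since no source ties that assembly to the lists. The members and the measures were chosen with earlier results of these data known. P-values of the regressions measure the spread between windows of 2 pooled lists, not between plants. Exact binomial and Fisher's exact tests, run as alternatives, take single summits as independent.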

Additional observations from a re-analysis of the deposited data

How the results depend on the processing

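Over 19 alternative settings 447 values were recomputed, of which 442 were labelled unchanged and 0 called values reversed. Values with a p were labelled by their side of the threshold. Ratios of median distances, which have no p, were labelled unchanged if within 1 standard error of the main estimate. Changes of sign numbered 46, all among values that passed the threshold neither before nor after. Among them were the chromosome 4 arm contrasts of empty bins and of list B density, both with a long arm of matched length. The direction of these contrasts therefore depends on the setting. Of 110 short over long densities under alternatives 0 passed. The shared ratio lay between 1.03 and 1.17 on chromosome 4 and between 0.997 and 1.09 on chromosome 10. The call that was lost in some settings was list B recurrence of the chromosome 4 short arm against the other 10 chromosomes, a log2 odds ratio of 0.47. It fell below the threshold with 1 Mb windows (0.47), partners within 50 bp (0.41) and borders 1 Mb further from the centromere (0.45). It also fell below without the richest short-arm window (0.47) and without the poorest (0.44). All of these settings except the 50 bp one leave fewer windows on the short arm, and the cause was not tested. Window length for shares, spacing and bins, and the start of the other chromosomes as comparison, were chosen after seeing the data. No paired analysis was possible because each list is a pool of 3 numbered replicates with no value for any one of them, and no replicate could be left out for the same reason. Without depth, weak sites cannot be told apart from missing ones.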

Other observations

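The variance of shared counts in 100 kb windows was 1.46 times their mean on the chromosome 4 short arm, against 1.33 on its long arm, and 1.23 on the chromosome 10 short arm, against 1.27 on its long arm. Windows with no shared summit numbered 2 of 87 on the chromosome 4 short arm, against 10 of 248 on its long arm, and 1 of 72 on the chromosome 10 short arm, against 6 of 139 on its long arm. The longest distance between neighbouring summits in list B only was 450.8 kb on the chromosome 4 short arm, against 384.0 kb on its long arm. These values were looked up after the lists were seen and carry no test.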
